A study of Homo sapiens with 36 samples.

Results

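THP-1 cells stably depleted of NR4A2 by a short hairpin RNA (shNR4A2) and kept at 5% CO2 were compared with and without bacterial lipopolysaccharide (LPS). Members were taken by sample title, which gave 3 libraries of shNR4A2 cells at 5% CO2 (basal) and 3 of shNR4A2 cells at 5% CO2 + LPS, or 6 of the 36 libraries of the series. THP-1 is a human monocytic line of leukaemic origin. The hairpin was delivered by lentivirus, and both groups carried it, so LPS was compared within a line whose NR4A2 was reduced and not removed. All cells spent 4 h in buffered medium equilibrated to 5% CO2, and those with LPS received 2.5 µg/ml for the last 2 h. The series also holds THP-1 cells with a non-target hairpin (shNT) or one against NR4A3, each at 5% or 10% CO2, and it was made to ask how these receptors bear on the response to raised CO2. Polyadenylated RNA was sequenced, and the values are whole-number counts of reads per gene. No label ties a replicate number to a separate culture, while the methods describe separate experiments, so p-values measure the spread between these libraries.

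LPS is a component of the outer membrane of Gram-negative bacteria. Monocytes sense it through TLR4, with CD14 and LY96 as partners, and the adaptors MYD88 and TICAM1 pass the signal on to NF-kB, to MAP kinases and to interferon regulatory factors. The first transcripts to appear encode short-lived regulators, among them the orphan nuclear receptors NR4A1, NR4A2 and NR4A3, and they are followed by chemokines, cytokines and inhibitors that end the signal.

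Total counts were 19004435 to 23929138 per basal library and 17361839 to 20035677 per library with LPS. All 14 monocytic markers were at a TPM of 1 or more on average, TPM being a transcript level per length scaled to the same total in every library, with a summed level of 3966 to 4670 TPM in basal libraries and 3148 to 3961 TPM with LPS. The 5 T cell, 3 erythroid and 4 fibroblast markers were all below 1 TPM on average over the 6 libraries. Of the 4 B cell markers 3 passed 1 TPM, CD79A and PAX5 among them. NCAM1 and NKG7 of the 4 NK cell markers passed 1 TPM, as did KRT8 of the 4 epithelial and PECAM1 of the 3 endothelial markers. In these bulk samples a change in the share of cells that make a transcript and a change in its amount per cell cannot be told apart.

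NR4A2, the target of the hairpin, stood at 1.82, 1.63 and 2.41 TPM in basal shNR4A2 libraries, against 4.16, 2.83 and 4.08 TPM in shNT cells at 5% CO2. With LPS it reached 20.5, 28.3 and 14.8 TPM, against 62.2, 74.7 and 51.3 TPM in shNT cells. The shNR4A2 and shNT libraries did not overlap in either state. The fitted level in shNR4A2 cells was 52.9% of that in shNT cells without LPS (log2 difference -0.92, SE 0.24, adjusted p = 0.0327) and 34.8% with LPS (log2 difference -1.52, SE 0.18, adjusted p = 5.78e-05). The basal difference did not stay below 0.05 when basal shNR4A2 replicate 1 or 2 or shNT replicate 1 or 3 was left out, at log2 differences of -0.87, -0.83, -0.81 and -0.88. NR4A2 still rose with LPS in the depleted cells, with a log2 fold change of 3.69 (SE 0.24, adjusted p = 4.89e-08).

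The other NR4A receptors rose as well. NR4A3 went from 0.707, 0.694 and 1.41 TPM to 33.0, 32.8 and 36.1 TPM (log2 fold change 5.44, SE 0.23, adjusted p = 5.52e-10), the largest of the 3 log2 fold changes and the highest of the 3 levels with LPS. NR4A1 went from 6.60, 8.10 and 5.89 TPM to 15.2, 17.2 and 13 TPM (log2 fold change 1.40, SE 0.16, adjusted p = 2.47e-05). The libraries with LPS lay above the basal ones for all 3 receptors, as they did for 8.04% of the genes tested. All 3 were called at an adjusted p under 0.05, where 8.91% of the 17720 genes tested rose. NR4A1 and NR4A3 were not called between shNR4A2 and shNT cells in either state, with adjusted p of 0.146 to 0.743, and fitted NR4A3 was at 160% of the shNT level without LPS and 111% with it.

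**Figure D1:**
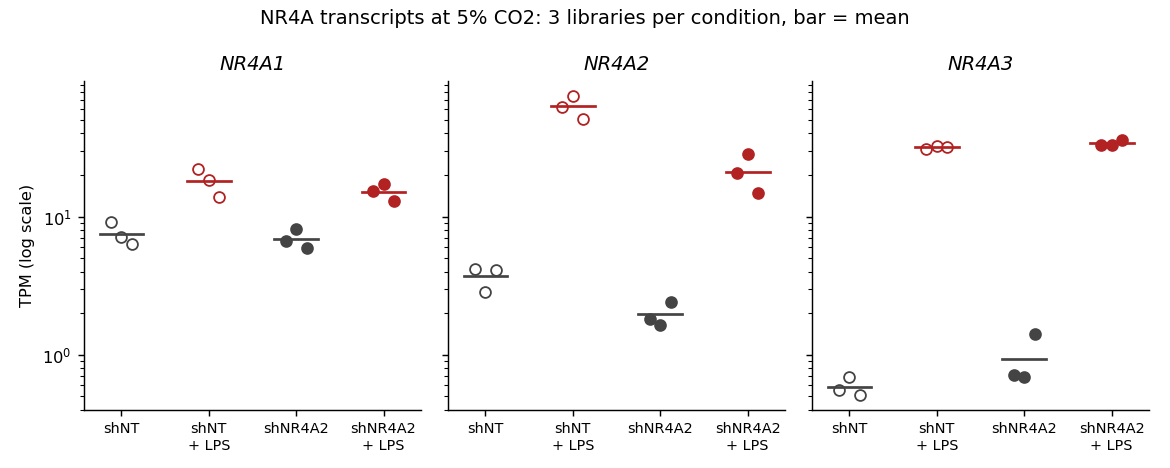
Levels of NR4A1, NR4A2 and NR4A3 in TPM on a log axis, in shNT (open circles) and shNR4A2 (filled circles) cells at 5% CO2 with and without LPS, 3 libraries per condition and a bar at the mean. NR4A2 with LPS averaged 21.2 TPM in shNR4A2 cells and 62.7 TPM in shNT cells, while NR4A3 averaged 34.0 and 31.7 TPM.

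Over all genes, 3220 of 17720 (18.2%) were called, 1579 (8.91%) higher and 1641 (9.26%) lower with LPS. The rises were the larger changes. A test against a change of 2-fold called 671 genes (3.79%), 575 of them higher (3.24%) and 96 lower (0.542%). Replicate numbers were taken to pair the libraries, which the fit behind these counts and the calls below does not use. With the number as a block 4904 genes were called, 2284 higher and 2620 lower. Without LPS replicate 1 the lower calls came to 999. The split depends on scaling: with TMM the median gene moved by -0.01 on the log2 scale, whereas scaling by library size alone moved it by -0.23 and gave 1122 higher and 3549 lower calls. TPM carries the same shift: the median gene's mean TPM with LPS was 82.5% of its basal one, and all 3 libraries with LPS lay below all basal ones for 35.5% of genes tested and above them for 8.04%. Directions are therefore given from the TMM fit, and TPM shows each library's level. Counts of list members below are to be read against the shares of all genes called, 8.91% higher and 9.26% lower. Those from the blocked fit are to be read against its 2284 and 2620 of 17720 genes. Many genes described singly were chosen partly because their libraries did not overlap, so for them that is not a separate result.

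Of the LPS receptor complex and its proximal signalling genes, 6 of the 23 tested rose and 4 fell. The receptor itself was not called in the fit without the block. TLR4 was at 26.1, 15.5 and 17.4 TPM in basal libraries and 23.4, 24.3 and 16.3 TPM with LPS (adjusted p = 0.231), and CD14 at 66.7, 39.9 and 44 and 45.5, 26.5 and 23.8 TPM (adjusted p = 0.403); the groups overlapped for both. Both were called in the blocked fit, with log2 fold changes of 0.39 for TLR4 (adjusted p = 0.0439) and -0.40 for CD14 (adjusted p = 0.0228). Leaving out basal replicate 1 also brought in TLR4 (0.64) and leaving out LPS replicate 1 brought in CD14 (-0.76).

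The rises lay downstream of the receptor. IRAK2, a kinase that sustains signalling from MYD88, went from 9.76, 7.99 and 6.71 TPM to 231, 137 and 239.8 TPM (log2 fold change 4.91, SE 0.28, adjusted p = 4.80e-07). MAP3K8, a kinase upstream of ERK, went from 12.1, 13.2 and 10.2 TPM to 121, 75.5 and 212 TPM (log2 fold change 3.81, SE 0.41, adjusted p = 4.56e-04). TICAM1, the adaptor of the interferon branch, went from 25.5, 25.2 and 23.7 TPM to 148, 119 and 107 TPM (log2 fold change 2.60, SE 0.16, adjusted p = 2.58e-08). The LPS libraries lay above the basal ones for these 3, as for 8.04% of all genes tested. LPS replicate 2 was the lowest of the LPS libraries for IRAK2 and MAP3K8. PELI1, TRAF3 and TAB2 also rose, by log2 fold changes of 1.89, 1.85 and 1.42. CD180, a TLR4-like receptor that restrains LPS signalling, fell from 5.86, 3.50 and 4.18 TPM to 1.03, 1.05 and 1.18 TPM (log2 fold change -1.79, SE 0.25, adjusted p = 1.56e-04). TIRAP, which brings MYD88 to the membrane, fell by 0.82 (adjusted p = 0.00377), as did TAB1 by 0.60 and TOLLIP by 0.37. TAB1 lost its call without LPS replicate 1 (-0.53), and TOLLIP lost it when any 1 library was left out, at -0.31 to -0.43, and with DESeq2 or RLE size factors (-0.35 in both). MYD88, IRAK1 and IRAK4 were not called.

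NF-kB subunits and inhibitors moved almost wholly upwards, with 16 of 21 rising, none falling and 14 past the 2-fold test. Their median log2 fold change was 1.85, against -0.01 over all genes. Among the inhibitors, NFKBIA, which holds NF-kB in the cytoplasm and is itself an NF-kB target, went from 124, 119 and 115 TPM to 2105, 1938 and 1721 TPM (log2 fold change 4.27, SE 0.14, adjusted p = 5.30e-11). TNFAIP3, the ubiquitin-editing enzyme A20, went from 37.2, 22.8 and 22.9 TPM to 1399.7, 1459 and 942 TPM (log2 fold change 5.78, SE 0.25, adjusted p = 1.42e-08). TNIP3, an A20-binding partner, rose from below 1 TPM (0.163, 0.202 and 0.393) to 61.6, 34.5 and 56.1 TPM (log2 fold change 7.89, SE 0.36, adjusted p = 1.45e-08). NFKBIZ, a nuclear cofactor needed for a secondary set of cytokine genes, went from 3.86, 4.62 and 4.04 TPM to 591, 618 and 434 TPM (log2 fold change 7.30, SE 0.19, adjusted p = 7.60e-12). The LPS libraries lay above the basal ones for these 4 genes, as for 8.04% of all genes tested. Some subunits rose as well, NFKB2 by more than NFKBIA on the log2 scale. NFKB2 had 22.2, 24.4 and 25.0 TPM and then 486, 307 and 581 TPM (log2 fold change 4.54, SE 0.25, adjusted p = 2.11e-07), and NFKB1 50.8, 38.4 and 44.7 TPM and then 483, 276 and 498 TPM (log2 fold change 3.51, SE 0.25, adjusted p = 3.27e-06). RELB and REL rose by 3.62 and 3.20 on the log2 scale. RELA, at a mean of 85.9 TPM without LPS and 83.0 TPM with it, was not called, nor were the kinases CHUK, IKBKB and TBK1 or the scaffold IKBKG.

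The kB consensus, the 10-base site that NF-kB dimers bind, was searched on both strands of the 250 bases before each annotated start in RefSeq (GRCh38.p14). Of the 21 NF-kB genes 18 had such a window, and 11 of them held a match, against 8.02% of the 12082 tested genes with a window and 5.21% of all 35116 windows. Besides CXC chemokines, 8 other lists had windows for at least 80% of their tested members, with 0 to 3 matched genes each, among them 0 of 10 MAP kinase phosphatases, 1 of 12 prostaglandin pathway genes, 3 of 20 LPS receptor and signalling genes and 2 of 19 heat shock genes. The matched genes of the NF-kB list were CYLD, NFKB1, NFKB2, NFKBIA, NFKBIB, NFKBID, NFKBIZ, REL, TNFAIP3, TNIP1 and TNIP3, each of which rose. The windows of NFKBIA (chr14:35404750-35404999, minus strand) and TNFAIP3 (chr6:137867009-137867258, plus strand) are shown, 5′ to 3′ along the gene, because these inhibitors reached the highest levels of the list with LPS. Capitals mark the matches.
NFKBIA: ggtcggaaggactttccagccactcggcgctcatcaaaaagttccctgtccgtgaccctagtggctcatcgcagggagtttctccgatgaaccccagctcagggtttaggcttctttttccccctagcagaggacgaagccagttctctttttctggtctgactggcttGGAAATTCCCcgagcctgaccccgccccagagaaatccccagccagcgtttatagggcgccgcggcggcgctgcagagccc
TNFAIP3: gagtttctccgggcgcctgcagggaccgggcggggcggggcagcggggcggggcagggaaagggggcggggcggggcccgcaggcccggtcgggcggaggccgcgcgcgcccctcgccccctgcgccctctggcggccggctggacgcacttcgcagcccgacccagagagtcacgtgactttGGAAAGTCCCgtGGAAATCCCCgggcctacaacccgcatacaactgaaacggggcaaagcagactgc
NFKBIA held 1 match, 81 to 72 bases before the start, and TNFAIP3 held 2, 67 to 58 and 55 to 46 bases before it. The sites NR4A receptors bind as monomers, AAAGGTCA (NBRE), were in 1.05% of all windows and 1.06% of the tested genes, and in none of the 18. A site this rare is likely to be missing from 18 genes, so no contrast with the kB matches can be drawn. A match is a description of the letters, not of binding.

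CXC chemokines had the largest median log2 fold change of the 25 lists, 6.78. Summed over the CXC list, the level was 27.9 to 43.7 TPM in basal libraries and 6526 to 9359 TPM with LPS, and 10 of the 11 members tested rose. Both chemokine lists together went from 0.0699% to 1.46% of all TPM. CXCL8, the main neutrophil attractant of human monocytes, went from 30.0, 28.4 and 18.2 TPM to 7006, 5022 and 4187 TPM (log2 fold change 8.0, SE 0.31, adjusted p = 1.04e-08). The related CXCL1, CXCL2 and CXCL3, which also act through CXCR2, started lower. CXCL1 went from 4.99, 3.68 and 2.67 TPM to 995, 610.0 and 823 TPM (log2 fold change 8.01, SE 0.30, adjusted p = 5.21e-09). CXCL2 went from 2.98, 2.41 and 1.54 TPM to 772, 551 and 624 TPM (log2 fold change 8.39, SE 0.25, adjusted p = 3.52e-11), and CXCL3 from 0.624, 0.258 and 0.148 TPM to 306, 176 and 258 TPM (log2 fold change 9.68, SE 0.39, adjusted p = 1.85e-08). Basal levels of all 4 were highest in replicate 1, as were the LPS levels. All LPS libraries lay above the basal ones for these 4, as for 9 of the 11 tested members and 8.04% of all genes. The interferon-linked attractants of T cells rose too. CXCL10 went from 0.785, 2.11 and 1.26 TPM to 246, 206 and 569 TPM (log2 fold change 8.24, SE 0.62, adjusted p = 6.07e-05), with LPS replicate 3 well above the other LPS libraries, and CXCL11 and CXCL9 rose by 6.78 and 4.70 on the log2 scale at 25.0 and 1.92 TPM with LPS. CXCL13 rose with overlapping groups (2.64, adjusted p = 0.0436), and the count was 9 with DESeq2 or when LPS replicate 1 or 3 or any basal library was left out. CXCL16, which is membrane-bound, was the 1 tested member not called (log2 fold change 0.33, SE 0.29).

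CXCL1, CXCL2 and CXCL3 lie close together on chromosome 4 and share a kB match almost at the same place, so their upstream windows are shown. They are chr4:73869143-73869392 on the plus strand for CXCL1, chr4:74099196-74099445 on the minus strand for CXCL2 and chr4:74038690-74038939 on the minus strand for CXCL3, again with matches in capitals.
CXCL1: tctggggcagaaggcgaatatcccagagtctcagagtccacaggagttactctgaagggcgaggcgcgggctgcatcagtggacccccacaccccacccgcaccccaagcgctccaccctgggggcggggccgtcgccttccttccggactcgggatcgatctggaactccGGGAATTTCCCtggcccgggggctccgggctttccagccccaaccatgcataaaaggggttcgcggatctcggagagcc
CXCL2: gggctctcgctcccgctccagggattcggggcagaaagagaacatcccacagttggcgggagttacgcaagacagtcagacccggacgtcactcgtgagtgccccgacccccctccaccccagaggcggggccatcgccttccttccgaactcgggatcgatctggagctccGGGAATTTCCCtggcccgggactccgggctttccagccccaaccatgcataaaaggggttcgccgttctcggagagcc
CXCL3: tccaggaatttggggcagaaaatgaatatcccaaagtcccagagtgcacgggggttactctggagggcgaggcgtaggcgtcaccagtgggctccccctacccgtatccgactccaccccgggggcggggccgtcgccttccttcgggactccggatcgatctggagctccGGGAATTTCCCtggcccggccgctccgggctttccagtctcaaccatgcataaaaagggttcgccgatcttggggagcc
In each window the match reads on both strands, shifted by 1 base. It began 79 bases before the start in CXCL1 and CXCL3 and 78 in CXCL2. Compared position by position without gaps, 64.8% of the 250 bases were the same in CXCL1 and CXCL3. The figures were 46.8% in CXCL1 and CXCL2 and 44% in CXCL2 and CXCL3. Upstream of the match CXCL2 is 1 base out of register with the others, so its 2 figures understate how alike the windows are. Of the 10 CXC genes with a window 6 held a match, namely CXCL1, CXCL2, CXCL3, CXCL6, CXCL10 and CXCL11.

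Of 13 CC and other chemokines tested, 9 rose and 1 fell. CCL4 and CCL3, attractants of monocytes and T cells, rose from low basal levels. CCL4 went from 1.67, 2.06 and 1.54 TPM to 1487, 972 and 1242 TPM (log2 fold change 9.73, SE 0.26, adjusted p = 1.08e-11) and CCL3 from 6.59, 9.31 and 9.25 TPM to 1425, 1089 and 894 TPM (log2 fold change 7.36, SE 0.24, adjusted p = 1.03e-10). CCL4L2 and CCL3L3 rose by 9.72 and 6.26 on the log2 scale, but they are near-identical copies of CCL4 and CCL3, and how reads were divided within each pair is uncertain. CCL20, the ligand of CCR6, went from 6.19, 5.25 and 4.16 TPM to 1651, 869.8 and 1137 TPM (log2 fold change 8.15, SE 0.33, adjusted p = 3.20e-08). CCL2, the ligand of CCR2, had a smaller response, from 9.30, 10.1 and 7.95 TPM to 106, 56.0 and 69.2 TPM (log2 fold change 3.36, SE 0.26, adjusted p = 1.81e-06). LPS replicate 1 was the highest LPS library for CCL2, CCL3, CCL4 and CCL20. CCL5 was already at a mean of 544 TPM and rose to 868 TPM (log2 fold change 0.95, SE 0.13), while CCL22, CCL23 and CCL24 were not called. CCL1 had no read in any basal library and 19 with LPS. The list's median log2 fold change was 5.91 as fitted and 3.36 with CCL1 at its bound. CCL28 fell by 0.64 on the log2 scale (adjusted p = 0.0279), a call that was lost without LPS replicate 1 or 3 or basal replicate 2 or 3, at log2 fold changes of -0.54, -0.53, -0.64 and -0.58.

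Cytokines followed, with 22 of 34 rising and 3 falling, and a median log2 fold change of 2.16. IL1B, the main secreted form of interleukin-1 in monocytes, went from 35.6, 28.0 and 33.5 TPM to 7943, 5138 and 4963 TPM (log2 fold change 7.81, SE 0.25, adjusted p = 1.78e-10), the largest gain in mean TPM of any gene. IL1A went from 1.23, 1.17 and 1.24 TPM to 563, 358 and 307 TPM (log2 fold change 8.66, SE 0.32, adjusted p = 5.01e-09). TNF was already present without LPS, at 55.5, 96.8 and 65.4 TPM, and reached 2224, 2129.9 and 2026 TPM (log2 fold change 5.14, SE 0.21, adjusted p = 1.22e-09). The LPS libraries lay above the basal ones for all 3, as for 8.04% of all genes tested, and LPS replicate 1 was the highest. Of the subunits of the interleukin-12 family, IL12B, IL23A and EBI3 each passed the 2-fold test. IL12B, shared by interleukins 12 and 23, went from 0.223, 0.276 and 0.477 TPM to 103, 62.4 and 109 TPM (log2 fold change 8.38, SE 0.36, adjusted p = 6.48e-09). IL23A rose from a mean of 9.91 to 1057 TPM and EBI3 from 1.79 to 118 TPM. IL12A, the partner that makes interleukin-12, was not called at 0.419 and 0.259 TPM. IL6 had no read in any basal library and 9.38, 5.46 and 7.52 TPM with LPS, at least 94.2-fold higher on a floor of 3 counts over the basal group (adjusted p = 9.92e-07). IL10, which restrains the response, was low at 0.156, 0.289 and 0.416 TPM and then 1.23, 0.749 and 1.81 TPM (log2 fold change 2.39, SE 0.57, adjusted p = 0.00869).

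Growth factors in the list included INHBA, PDGFB and LIF, which rose by 5.35, 4.26 and 4.66 on the log2 scale to 5.78, 5.28 and 12.8 TPM. The 3 members that fell belong to the TNF superfamily. TNFSF14 (LIGHT), a costimulator of T cells, fell from 40.5, 28.4 and 38.2 TPM to 5.08, 5.85 and 5.58 TPM (log2 fold change -2.43, SE 0.16, adjusted p = 7.50e-08). TNFSF10 (TRAIL) went from 9.22, 9.11 and 10.7 TPM to 2.68, 4.00 and 4.82 TPM (log2 fold change -1.06, SE 0.22, adjusted p = 0.00328), and TNFSF13B (BAFF) from 13.1, 8.91 and 11.9 TPM to 5.02, 4.36 and 4.30 TPM (log2 fold change -1.04, SE 0.21, adjusted p = 0.00257). The LPS libraries lay below the basal ones for all 3, as for 35.5% of all genes tested. IL1RN, the interleukin-1 receptor antagonist, and IL18 were not called, at log2 fold changes of 0.44 and 0.32.

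**Figure D2:**
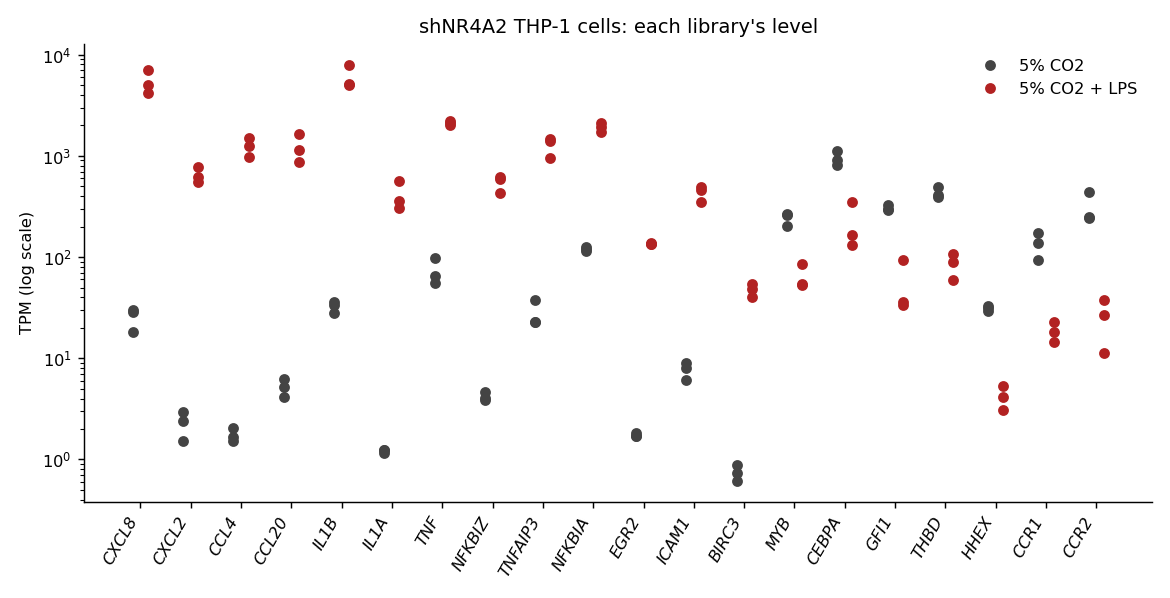
Level in TPM (log axis) of 20 genes in each basal library (dark) and each library with LPS (red) of shNR4A2 cells at 5% CO2. The 13 genes on the left lie higher with LPS in every library, led by IL1B at a mean of 6014 TPM, and the 7 from MYB to CCR2 lie lower in every library. Of all genes tested, 8.04% lay higher in this way and 35.5% lower.

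Immediate-early transcription factors rose for 16 of 30 members and fell for 4. The EGR family moved as a whole. EGR2, a zinc-finger factor of monocyte differentiation, went from 1.84, 1.71 and 1.69 TPM to 136, 136 and 136 TPM (log2 fold change 6.54, SE 0.16, adjusted p = 5.72e-12), with the smallest adjusted p of all genes. EGR1 went from 27.7, 23.6 and 16.0 TPM to 193, 221 and 90.2 TPM (log2 fold change 3.16, SE 0.35, adjusted p = 5.33e-04), and EGR3 from 0.887, 1.45 and 0.779 TPM to 30.5, 40.4 and 15.1 TPM (log2 fold change 5.05, SE 0.38, adjusted p = 6.70e-06). LPS replicate 3 was the lowest of the LPS libraries for EGR1 and EGR3. EGR4 rose by 3.43 on the log2 scale. Of the AP-1 components, JUNB, JUN and FOSB rose by 2.86, 2.73 and 1.76, and ATF3, a stress-induced repressor of cytokine genes, went from 14.4, 13.6 and 11.2 TPM to 74.9, 68.5 and 42.8 TPM (log2 fold change 2.51, SE 0.20, adjusted p = 1.12e-06). FOS was not called, at 56.4, 54.0 and 51.9 TPM and 45.8, 35.1 and 44.9 TPM (log2 fold change -0.09, SE 0.15, adjusted p = 0.723). Its TPM lay lower in every LPS library, as did that of 35.5% of genes, and its fitted change turned to 0.074 without LPS replicate 2. MYC fell from 254, 265 and 272 TPM to 90.4, 56.0 and 68.2 TPM (log2 fold change -1.60, SE 0.17, adjusted p = 1.79e-05), and BATF and BATF2 fell by 0.85 and 1.18. KLF4 fell by 0.81 (adjusted p = 0.0174), a call lost without LPS replicate 3 (-0.60) or basal replicate 1 (-0.63).

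Genes that end the signal rose beside those that carry it. Of 12 dual-specificity phosphatases, which switch off MAP kinases, 7 rose and 1 fell (3 in the blocked fit or with library size alone). DUSP8 went from 4.83, 5.41 and 2.99 TPM to 63.8, 64.5 and 43.8 TPM (log2 fold change 3.96, SE 0.23, adjusted p = 4.20e-08) and DUSP1 from 6.55, 6.51 and 5.79 TPM to 88.8, 73.7 and 60.4 TPM (log2 fold change 3.83, SE 0.19, adjusted p = 3.81e-09). DUSP16 and DUSP2 rose by 2.98 and 1.61 on the log2 scale, and DUSP7 fell by 1.14. Of 23 genes of mRNA decay and cytokine feedback, 9 rose and 4 fell. ZC3H12A (regnase-1), a ribonuclease that degrades cytokine mRNAs, went from 15.4, 22.6 and 14.3 TPM to 579.8, 634 and 566 TPM (log2 fold change 5.35, SE 0.19, adjusted p = 8.25e-11). SOCS3, an inhibitor of cytokine receptor signalling, went from 9.79, 9.97 and 7.10 TPM to 386, 261 and 353 TPM (log2 fold change 5.49, SE 0.22, adjusted p = 1.68e-09). The LPS libraries lay above the basal ones for both, as for 8.04% of all genes tested. ZFP36 (tristetraprolin), which marks AU-rich mRNAs for decay, was abundant throughout, at 182, 203 and 182 TPM and then 235, 354 and 217 TPM (log2 fold change 0.76, SE 0.15, adjusted p = 0.00205). Its relative ZFP36L2 went the other way, from 612, 547 and 571 TPM to 139.8, 231 and 132 TPM (log2 fold change -1.53, SE 0.16, adjusted p = 1.00e-05), and CISH, a feedback inhibitor of STAT5, fell by 2.27 on the log2 scale.

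Interferon-stimulated genes responded in part, with 13 of 48 rising, 1 falling (TRIM21, log2 fold change -0.80) and a median log2 fold change of 0.27. The blocked fit called 19 higher and 3 lower, and library size alone 10 and 4. IFNB1 had 1 count over the basal libraries and 51 with LPS, a ratio of 58.1, with a 95% counting interval of 9.97 to 2340.0. The guanylate-binding proteins were among the risers. GBP2 went from 5.57, 6.53 and 6.29 TPM to 55.0, 43.3 and 62.6 TPM (log2 fold change 3.40, SE 0.18, adjusted p = 5.58e-09), and GBP1, GBP3 and GBP5 rose by 2.49, 1.76 and 1.67 on the log2 scale. IFIT2, an RNA-binding antiviral protein, went from 6.27, 10.0 and 12.3 TPM to 19.4, 19.4 and 39.6 TPM (log2 fold change 1.74, SE 0.34, adjusted p = 0.00631), with LPS replicate 3 at 39.6 TPM and the other LPS libraries at 19.4 TPM. MX1, OAS1 and RSAD2 were not called, with log2 fold changes of 0.09, 0.27 and -0.18. IRF1 rose by 0.53 (adjusted p = 0.0204) with overlapping groups, and lost its call with library size alone (0.32) and without basal replicate 3 (0.38).

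Inflammasome genes moved in both directions. Of 15 tested, 3 rose and 4 fell. NLRP3, the sensor usually primed by LPS, was not called, at 117, 111 and 85.7 TPM and 88.9, 96.0 and 56.5 TPM (log2 fold change -0.12, SE 0.18, adjusted p = 0.696), and its fitted change turned to 0.078 without LPS replicate 3. CASP1, which cleaves pro-interleukin-1 beta, was at a mean of 56.4 TPM without LPS and 46.0 TPM with it and was not called. NLRC4 fell from 7.18, 3.47 and 4.99 TPM to 1.51, 0.971 and 0.943 TPM (log2 fold change -1.94, SE 0.32, adjusted p = 6.16e-04). TXNIP, which binds thioredoxin, fell from 1250.0, 1224 and 1138 TPM to 487, 385 and 557 TPM (log2 fold change -1.06, SE 0.16, adjusted p = 2.19e-04). The rises, of CASP4, CASP5 and MEFV, depended on the libraries: none was called without LPS replicate 1, LPS replicate 3 or basal replicate 2, and 1 without basal replicate 1. With library size alone 1 rose and 7 fell. The falls came to 2 without LPS replicate 2 or basal replicate 3.

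In the prostaglandin and leukotriene pathway 4 of 14 genes rose and none fell. PTGS2 (cyclooxygenase-2), the inducible enzyme of prostaglandin synthesis, went from 1.84, 1.19 and 1.65 TPM to 125, 77.9 and 56.3 TPM (log2 fold change 6.05, SE 0.35, adjusted p = 2.15e-06). The prostaglandin E2 receptors PTGER4 and PTGER2 rose with it. PTGER4 went from 117, 110.2 and 91.7 TPM to 655, 796 and 373 TPM (log2 fold change 2.77, SE 0.23, adjusted p = 7.44e-06), and PTGER2 from 0.0622, 0.154 and 0.333 TPM to 4.00, 5.69 and 4.91 TPM (log2 fold change 4.93, SE 0.41, adjusted p = 1.01e-06). PTGS1, PTGES and ALOX5 were not called.

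Adhesion and activation receptors rose for 22 of 37 members and fell for 3 (6 in the blocked fit). ICAM1, the ligand of leukocyte integrins, went from 9.01, 7.92 and 6.04 TPM to 489.7, 347 and 460.4 TPM (log2 fold change 6.09, SE 0.22, adjusted p = 4.28e-10). TNFRSF9, a costimulatory receptor of the TNF family, went from 0.194, 0.151 and 0.156 TPM to 12.1, 5.09 and 8.80 TPM (log2 fold change 5.94, SE 0.41, adjusted p = 4.91e-07). CD83, CD40 and CD80, which mark activated antigen-presenting cells, rose from means of 19.0, 22.0 and 0.189 TPM to 714, 193 and 1.25 TPM. CD69 had 2 counts over the basal libraries and 348 with LPS, a ratio of 198, with a 95% counting interval of 54.5 to 1644. TLR7 and TLR2 rose by 4.69 and 1.63 on the log2 scale. THBD (thrombomodulin), an anticoagulant receptor, fell from 490.2, 411 and 389 TPM to 107, 90.0 and 58.9 TPM (log2 fold change -2.07, SE 0.20, adjusted p = 1.04e-05), and the TNF receptor TNFRSF1B from 187, 177 and 134 TPM to 74.9, 92.7 and 48.5 TPM (log2 fold change -0.95, SE 0.20, adjusted p = 0.0055). TLR6 fell by 0.69, a call lost without basal replicate 1 (-0.57). CD86 was not called, at -0.63 (SE 0.25).

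Receptors for chemoattractants and nucleotides gave the main falling list, with 12 of 26 falling and 4 rising against 9.26% of all genes falling, and a median log2 fold change of -0.78. CCR2, the receptor of CCL2 and the mark of classical monocytes, fell from 438, 251 and 241 TPM to 26.9, 37.4 and 11.2 TPM (log2 fold change -3.38, SE 0.43, adjusted p = 0.00122). CCR1, a receptor of CCL3 and CCL5, fell from 173, 137 and 93.7 TPM to 22.6, 18.0 and 14.6 TPM (log2 fold change -2.61, SE 0.24, adjusted p = 1.82e-05). CX3CR1, the fractalkine receptor, fell by 1.64 on the log2 scale, from a mean of 73.9 to 19.8 TPM, and CXCR2, the receptor of CXCL8, by 1.53. Levels without LPS were highest in replicate 1 for CCR2 and CCR1, and the LPS libraries lay below the basal ones. The same held for 18 of the 26 tested members and 35.5% of all genes tested. Purinergic receptors P2RY1, P2RY2, P2RY6, P2RY8 and P2RY11 fell, by 0.51 to 1.78, whereas P2RY13 and P2RX4 rose by 3.53 and 1.35 on the log2 scale. Among adenosine receptors, ADORA3 fell from 4.35, 2.62 and 3.86 TPM to 0.677, 0.207 and 0.0636 TPM (log2 fold change -3.29, SE 0.50, adjusted p = 3.02e-04) and ADORA2A, which raises cyclic AMP and damps inflammation, rose from 0.0367, 0.227 and 0.118 TPM to 4.19, 2.34 and 4.36 TPM (log2 fold change 5.12, SE 0.47, adjusted p = 2.57e-06). C3AR1, a complement receptor, rose from 13.7, 17.0 and 17.5 TPM to 116, 94.7 and 123 TPM (log2 fold change 3.07, SE 0.17, adjusted p = 1.09e-08), whereas C5AR1 and FPR1 were not called.

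Transcription factors of blood cell lineages moved both ways. Of 40 tested, 15 fell (37.5%, against 9.26% of all genes) and 11 rose (27.5%, against 8.91%), with a median log2 fold change of -0.33. Factors of progenitors and granulocytic cells were among those that fell. GFI1 went from 297, 326 and 295 TPM to 35.9, 92.8 and 33.3 TPM (log2 fold change -2.27, SE 0.35, adjusted p = 0.00301), with LPS replicate 2 well above the other LPS libraries. CEBPA, the lead factor of myeloid commitment, went from 912, 1119.8 and 804 TPM to 166, 351 and 132 TPM (log2 fold change -1.89, SE 0.32, adjusted p = 0.00423), with the same library highest. MYB, which maintains progenitors, went from 261, 201 and 265 TPM to 52.7, 84.7 and 54.6 TPM (log2 fold change -1.67, SE 0.16, adjusted p = 3.30e-06). The homeobox factor HHEX fell from 31.6, 33.1 and 29.2 TPM to 4.16, 5.28 and 3.05 TPM (log2 fold change -2.66, SE 0.20, adjusted p = 2.45e-07). CEBPE, ID2, ID1 and IRF5 fell by 2.25, 1.39, 1.25 and 1.11 on the log2 scale. The LPS libraries lay below the basal ones for GFI1, CEBPA, MYB and HHEX. The same held for 20 of the 40 tested members and 35.5% of all genes tested. The risers included the repressor BCL6, from 12.9, 10.8 and 9.97 TPM to 115, 88.4 and 82.2 TPM (log2 fold change 3.36, SE 0.17, adjusted p = 5.21e-09). SPI1 (PU.1) rose by 0.75 from 657 to 919 TPM, and IRF8, RUNX3 and CEBPB were not called.

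Survival and apoptosis regulators rose for 14 of 26 members and fell for 3. The NF-kB-linked inhibitors of cell death led. BCL2A1, a BCL2 relative, went from 16.8, 12.1 and 14 TPM to 567, 309 and 470.0 TPM (log2 fold change 5.24, SE 0.27, adjusted p = 1.29e-07), and BIRC3 (cIAP2), a ubiquitin ligase of the TNF receptor complex, from 0.614, 0.735 and 0.875 TPM to 48.5, 40.6 and 54.4 TPM (log2 fold change 6.28, SE 0.21, adjusted p = 4.61e-11). TRAF1 rose by 5.39 and CFLAR, an inhibitor of caspase-8, by 2.12 on the log2 scale. FADD, the death receptor adaptor, fell from 62.9, 81.4 and 66.7 TPM to 16.8, 20.3 and 20.9 TPM (log2 fold change -1.60, SE 0.16, adjusted p = 5.07e-06). BAK1, a pore-former of mitochondria, fell by 0.65 (adjusted p = 0.00164). BCL2, BAX and XIAP were not called.

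Metabolic genes changed at a few points. Of 29 genes of glycolysis and immunometabolism 9 rose and 1 fell (3 in the blocked fit), and the core glycolytic enzymes HK1, PFKL, ALDOA, ENO1 and LDHA were not called, with log2 fold changes of -0.09 to 0.28. SLC2A6, a lysosomal sugar transporter, went from 10.6, 10.4 and 10.3 TPM to 409.8, 261 and 468 TPM (log2 fold change 5.46, SE 0.25, adjusted p = 2.05e-08). GCH1, the first enzyme of tetrahydrobiopterin synthesis, went from 8.71, 6.01 and 9.92 TPM to 189, 110.2 and 193 TPM (log2 fold change 4.6, SE 0.28, adjusted p = 1.16e-06), and NAMPT, which salvages NAD, rose by 2.95. ACOD1, which makes itaconate, had 1 count over the basal libraries and 519 with LPS, a ratio of 591, with a 95% counting interval of 106 to 23405. The glucose transporter SLC2A1 fell from 313, 333 and 277 TPM to 159, 212 and 125 TPM (log2 fold change -0.64, SE 0.15, adjusted p = 0.00878), a call lost without basal replicate 2 (-0.57). Of 22 antioxidant, iron and metallothionein genes 5 rose (22.7%, against 8.91% of all genes) and 2 fell (9.09%, against 9.26%). The falls were thus near the share of all genes. In the blocked fit 12 rose, and 9 rose without LPS replicate 2. FTH1, the ferritin heavy chain that stores iron, went from 1628, 1234 and 1567 TPM to 6086, 4536 and 5983 TPM (log2 fold change 2.18, SE 0.17, adjusted p = 3.47e-07), and HMOX1, NQO1 and the metallothioneins, whose copies are alike, were not called.

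Smaller or mixed changes marked the other lists. MHC class II genes had 2 of 17 rising (11.8%, against 8.91% of all genes) and none falling. The risers were HLA-DRA (log2 fold change 1.41, SE 0.24, adjusted p = 8.66e-04) and RFX5 (log2 fold change 0.65, SE 0.11, adjusted p = 9.64e-04), and the blocked fit called 7 higher and 1 lower. Of 29 cholesterol genes 5 rose (17.2%, against 8.91% of all genes) and 1 fell (3.45%, against 9.26%). In the blocked fit 9 rose and 3 fell, where 2284 and 2620 of all 17720 genes did. The risers included the synthetic enzymes HMGCS1 and SQLE at log2 fold changes of 0.91 and 0.64 and the sterol sensor partner INSIG1 at 0.83. Cell cycle genes had 7 of 37 rising (18.9%, against 8.91% of all genes) and 5 falling (13.5%, against 9.26%). The polo-like kinases PLK2 and PLK3 rose by 2.46 and 2.10, the MCM helicase subunits MCM2 to MCM7 were not called, and E2F8 fell by 0.97. The 5 falls came to 3 with RLE size factors, to 2 without LPS replicate 1, LPS replicate 3 or basal replicate 2, to 3 without basal replicate 3, and to 11 with library size alone. Serpins and proteases had 10 of 26 rising and 3 falling. SERPINE2 went from 3.57, 3.15 and 4.57 TPM to 150.4, 68.5 and 216 TPM (log2 fold change 5.56, SE 0.48, adjusted p = 1.34e-04), SERPINB2 fell from 7.67, 9.78 and 11.4 TPM to 1.47, 3.71 and 2.67 TPM (log2 fold change -1.61, SE 0.27, adjusted p = 7.91e-04), and ADAMTS4 fell by 2.34.

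Heat shock proteins and co-chaperones had 7 of 20 rising and none falling, led by DNAJB4 and DNAJA1 at log2 fold changes of 1.34 and 1.09. That count was 12 in the blocked fit or without LPS replicate 2, 4 without LPS replicate 1 or basal replicate 3, and 3 without LPS replicate 3, without basal replicate 2 or with library size alone. None of the 13 mitochondrially encoded genes was called by edgeR or DESeq2, and MT-ND3 and MT-CO2 had unadjusted p of 0.0401 and 0.0464. The blocked fit called 1 higher, as did the fit without LPS replicate 2. Of 12 common reference genes 4 rose (B2M, RPLP0, PPIA and PGK1, by 0.35 to 0.57) and TBP fell by 0.39. With library size alone 1 of them rose, as did 1 without LPS replicate 1, basal replicate 1 or basal replicate 3 and 2 without LPS replicate 3. The blocked fit called 7 higher. TBP lost its call when any 1 library was left out, at -0.34 to -0.42, and with RLE size factors (-0.37).

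**Figure D3:**
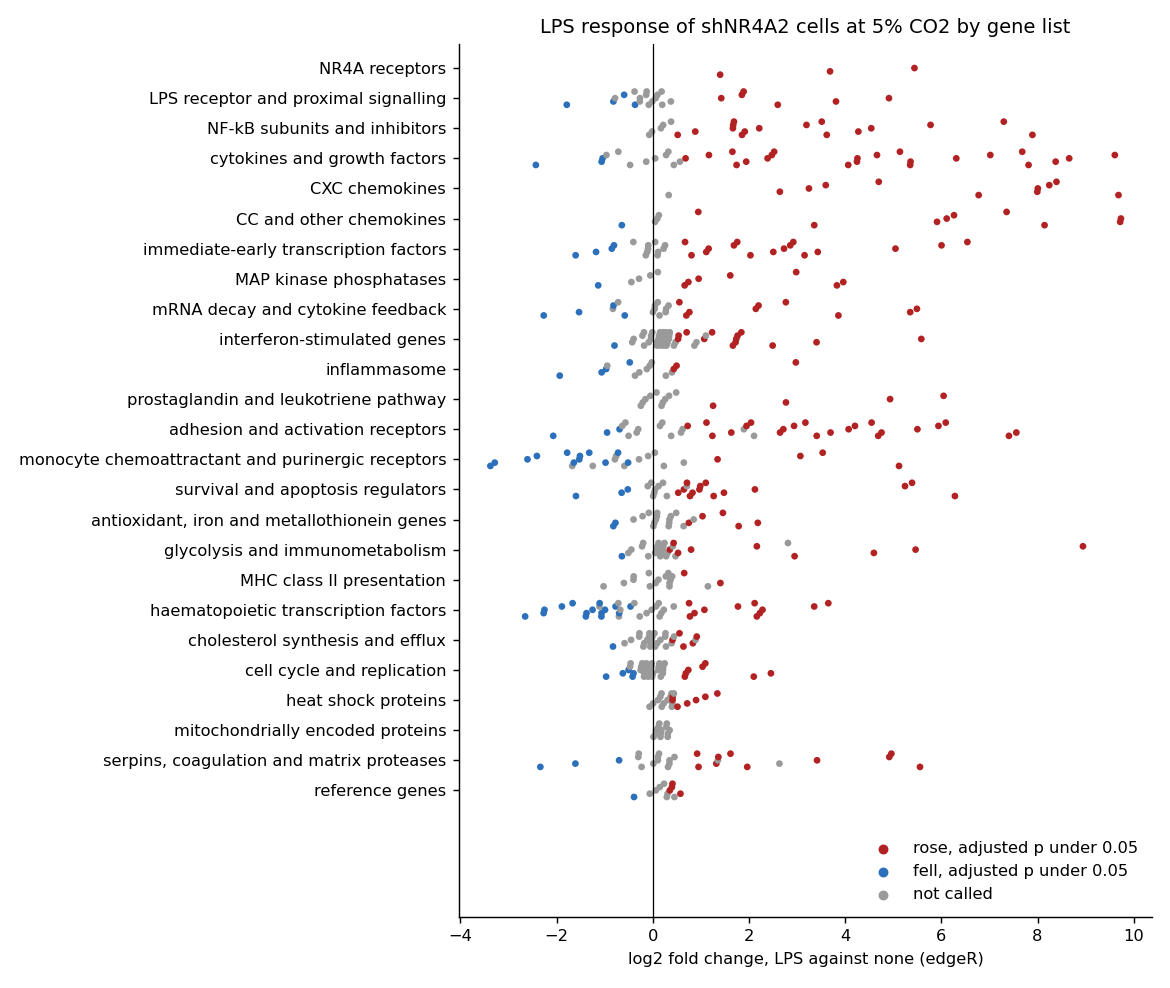
Log2 fold change with LPS of every tested member of the 25 gene lists in shNR4A2 cells at 5% CO2, 1 point per gene, coloured by the call at an adjusted p under 0.05. IL6, IL36G, CCL1 and VCAM1 had no basal read, so their fitted positions are not bounds. Chemokine points reach 9.73 (CCL4), and the receptor list reaches -3.38 (CCR2).

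Genes outside the lists added to both ends. TNFAIP6, a hyaluronan-binding protein of inflamed tissue, went from 0.975, 2.54 and 0.313 TPM to 952, 513 and 985 TPM (log2 fold change 9.65, SE 0.56, adjusted p = 1.30e-05). SHROOM3, an actin-binding protein, went from 0.164, 0.0435 and 0.100 TPM to 41.3, 31.6 and 37.8 TPM (log2 fold change 8.69, SE 0.27, adjusted p = 4.06e-11). FRMD7 had no read in a basal library and 3.40, 2.17 and 4.68 TPM with LPS, at least 70.7-fold higher. Genes at both ends were taken by fold among those whose groups did not overlap. At the other end, the G protein-coupled receptor GPR82 fell from 8.55, 3.98 and 5.11 TPM to 0.362, 0.277 and 0.459 TPM (log2 fold change -3.72, SE 0.38, adjusted p = 8.08e-06), the proton sensor GPR65 from 3.57, 2.57 and 3.09 TPM to 0.268, 0.246 and 0.265 TPM (log2 fold change -3.29, SE 0.32, adjusted p = 4.18e-06), and the sphingosine phosphate receptor S1PR5 from 3.51, 4.82 and 4.87 TPM to 0.216, 0.330 and 0.609 TPM (log2 fold change -3.19, SE 0.37, adjusted p = 2.48e-05). NFE2, a factor of erythroid cells and platelets, fell from 27.1, 26.8 and 25.3 TPM to 1.80, 3.90 and 1.59 TPM (log2 fold change -3.19, SE 0.25, adjusted p = 5.43e-07), and IL16 fell by 2.88 on the log2 scale.

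The response was set beside that of shNT cells at 5% CO2, in 1 fit to the 12 libraries, to ask where depletion of NR4A2 altered it. No gene (0.0%) passed an adjusted p of 0.05 in edgeR's test of the difference, where 392 genes (2.21%) lay under 0.05 before adjustment. By DESeq2 2 genes were called, while edgeR with the replicate block called 8 and edgeR without LPS replicate 2 called 8. Each response stands on its own controls. All 671 genes past the 2-fold test in shNR4A2 cells had the same sign in shNT cells, as did 3202 of the 3220 called genes. These were chosen for a change in shNR4A2 cells, and over all 17720 genes tested the sign was shared by 14421. The median log2 fold change was 6.78 in shNR4A2 and 7.11 in shNT cells for CXC chemokines, 1.86 and 1.65 for NF-kB genes, 2.17 and 1.88 for cytokines and -0.78 in both for the receptor list. NR4A2 itself had log2 fold changes of 3.69 and 4.29, a difference of -0.60 (SE 0.30, unadjusted p = 0.0643, adjusted p = 1.00), and TNF of 5.14 and 5.23. MYC had log2 fold changes of -1.60 in shNR4A2 and -2.74 in shNT cells, a difference of 1.14 (SE 0.22) with an adjusted p of 0.855 in edgeR and 0.0450 in DESeq2. KLF4 was at -0.81 and 0.11 (adjusted p = 1.00, and 0.0432 with the block), and CXCR4 at -0.76 and 0.66 (adjusted p = 1.00, and 0.0482 with the block). TLR4 had log2 fold changes of 0.38 in shNR4A2 and 1.09 in shNT cells (adjusted p = 0.00157 in shNT cells). The TLR4 difference of -0.71 (SE 0.29, unadjusted p = 0.0265) was not called. Of the survival genes, CFLAR rose by 2.13 and 1.38, which did not pass (unadjusted p = 7.97e-04). A p that misses the threshold leaves differences of this size possible at 3 libraries per group.

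**Figure D4:**
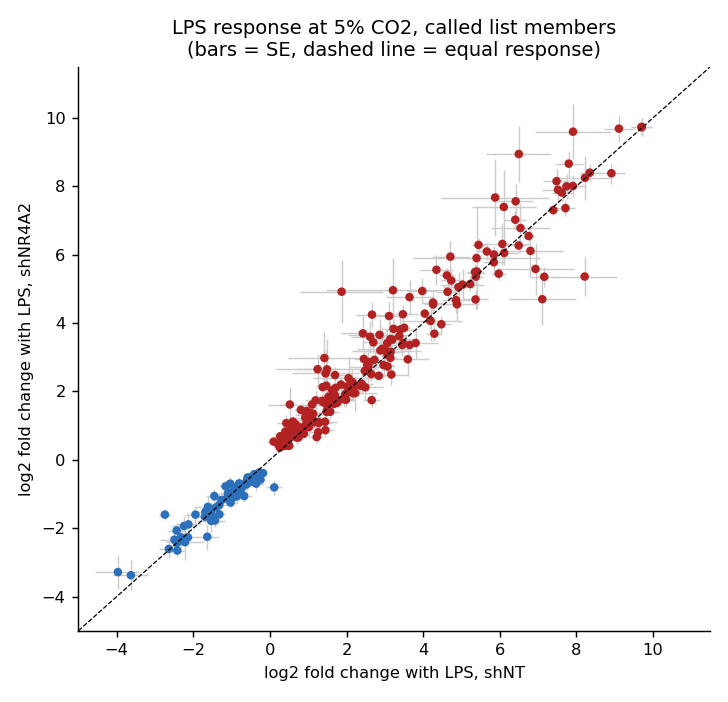
Log2 fold change with LPS at 5% CO2 in shNR4A2 (vertical axis) against shNT cells (horizontal axis) for the 285 called members of the gene lists, with bars for the SE, red for genes that rose in shNR4A2 cells and blue for those that fell. Of these genes 284 had the same sign in both lines, KLF4 being the exception, against 14421 of all 17720 genes tested.

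Set beside shNR4A2 cells at 10% CO2, the response again gave no edgeR call of a difference (0.0%), with 904 genes (5.10%) at an unadjusted p under 0.05, 13 DESeq2 calls, 4 with the replicate block and 24 without LPS replicate 3. NR4A3 rose by 5.44 at 5% CO2 and by 7.13 at 10% CO2, a difference of -1.69 (SE 0.38) with an adjusted p of 0.541 in edgeR and 0.00414 in DESeq2. TNF rose by 5.14 at 5% and 6.21 at 10% CO2 (unadjusted p = 0.00326, adjusted p = 0.876). CD44, the hyaluronan receptor, rose by 1.24 and 2.35 (adjusted p = 0.541, 0.0174 in DESeq2 and 0.00668 with the block). For CXC chemokines the median log2 fold change was 6.78 at 5% and 7.09 at 10% CO2, and for the receptor list -0.78 and -1.24.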

How the data were processed

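Libraries were made from polyadenylated RNA and sequenced as paired 150-base reads. According to the methods and the submitters' processing notes, the authors used Trimmomatic 0.36 for trimming, STAR 2.5.2b for alignment to GRCh38 and featureCounts of Subread 1.5.2 for counts per gene. The gene annotation's version, the use of strand and the unit counted (read or fragment) are not given in the sources used here, so overlapping and antisense genes cannot be told apart, and near-identical copies (CCL3 and CCL3L3, CCL4 and CCL4L2, HSPA1A and HSPA1B, the HLA-DR genes and metallothioneins) are uncertain. The deposited values are raw counts for 57500 gene IDs, of which 56410 (98.1%) were matched to a symbol. SOD2 was not matched. It and a few other genes are not reported here, although they stay in the fits and counts.

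Genes were kept with filterByExpr (edgeR 4.0.16 in R 4.3.3) over the 36 libraries in 12 conditions, at a minimum count of 10 and a total of 15, which left 17720. Counts were scaled by TMM, and LPS against none was tested on the 6 libraries with edgeR's quasi-likelihood test and Benjamini-Hochberg adjustment. A change past 2-fold was tested with glmTreat. Differences between responses were interaction terms over 12 libraries, and the knockdown was tested in the 12-library fit. SE is the absolute log2 fold change divided by the square root of F. TPM came from dividing counts by each file's gene length. Genes with no basal read are given as bounds from a floor of 3 counts over the group, and intervals of count ratios cover counting error only.

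With 3 libraries against 3 an exact permutation test cannot go below p = 0.1, so no such test was run. Replicates differed by more than counting noise, with a chi-square per degree of freedom of 11.8 to 29.6, and the biological coefficient of variation was 14.9%. Deviations of same-numbered libraries from their group means correlated at 0.490, 0.298 and 0.509 over 9362 genes, so the numbers were taken to pair the libraries. Other pairs lay at -0.291 to -0.144. Deviations cancel out within a group, so positive same-numbered pairs make the other pairs negative on average. The negative values are therefore no separate evidence of pairing. The blocked fit is given where it changed a call. Tried as alternatives were library size alone, RLE size factors, DESeq2 1.42.0, other filters and thresholds, the replicate block, a fit to all 36 libraries and leaving out each library.

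Genes described singly were drawn from a set of anchor genes and from up to 4 members of each list and direction. Those members had the largest log2 fold change among called members without overlap. The 10 genes with the largest change in each direction were added, by fold (again only without overlap) and by TPM. Together these are 174 genes, not all of which are named. Lists and members were chosen with earlier results of these data known. The scripts were tested on simulated data.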

Additional observations from a re-analysis of the deposited data

How the results depend on the processing

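The 3220 genes called came to 4904 with the replicate block, 5211 in a fit to all 36 libraries, 1887 at an adjusted p of 0.01 and 2210 to 3449 with 1 library left out. Higher calls (1579) were 2517 in all 36 libraries and 1050 at the stricter threshold, and lower calls (1641) were 2620 with the block, 2694 in all 36 libraries, 837 at the stricter threshold, 3549 with library size alone and 999 to 1646 with 1 library left out. A 2-fold estimate in place of the 2-fold test gave 1525 genes, 947 higher and 578 lower, and the 96 lower ones were 159 with library size alone, 42 with DESeq2 and 54 at an adjusted p of 0.01. The difference between shNR4A2 and shNT responses gave 2 calls with DESeq2 (both higher), 19 with no filter (13 higher, 6 lower), 8 with the block (4 and 4) and 0 to 8 with 1 library left out. That between 5% and 10% CO2 gave 13 (all lower), 71 (17 and 54), 4 (all lower), 1 in all 36 libraries (lower) and 0 to 24 with 1 library left out, 0 to 3 higher and 0 to 21 lower. The basal NR4A2 difference was -1.07 to -0.81 with 1 library left out, with 4 of these no longer past the threshold. With 1 library left out, FOS lay between -0.19 and 0.074 and NLRP3 between -0.26 and 0.078, and neither was called. The block brought in CD14 and TLR4 and lost no call among the 174 genes chosen to be described singly. The cause of these shifts was not tested. Depth limits how closely a fold is known where basal reads are few, as for IFNB1, with a counting interval of 9.97 to 2340.0.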

Other observations

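Some abundant transcripts outside the lists rose as well. BTG2, an antiproliferative cofactor of mRNA deadenylation, went from 61.8, 72.0 and 68.2 TPM to 2282, 2282 and 2152 TPM (log2 fold change 5.32, SE 0.14, adjusted p = 1.03e-11). PTX3, a secreted pattern recognition protein, went from 33.8, 24.9 and 34.2 TPM to 2007, 1279 and 2469 TPM (log2 fold change 6.23, SE 0.29, adjusted p = 1.13e-07), and PLEK, a substrate of protein kinase C, from 279, 273 and 251 TPM to 2834, 2209.7 and 2422 TPM (log2 fold change 3.49, SE 0.15, adjusted p = 1.16e-09). SRGN, the core protein of a granule proteoglycan, rose by 0.71 on the log2 scale from 6722, 6688 and 7086 TPM to 9380.2, 9578 and 9024 TPM. The LPS libraries lay above the basal ones for these 4, as for 8.04% of all genes tested. The largest gains in TPM also included FTL, the ferritin light chain and a member of the iron list, and the translation factor EEF1A1, with rises of 0.75 and 0.62 on the log2 scale. FTL went from 10931, 12094 and 12511 TPM to 16563, 13272 and 19524 TPM and EEF1A1 from 7507, 5717 and 6638 TPM to 8752, 8544 and 8048 TPM. Among the falls, C16orf54 went from 104, 95.8 and 72.6 TPM to 10.3, 14.3 and 7.67 TPM (log2 fold change -2.82, SE 0.20, adjusted p = 2.15e-07), and CASS4, an adhesion scaffold, from 6.83, 5.68 and 6.04 TPM to 0.558, 0.841 and 0.337 TPM (log2 fold change -3.16, SE 0.28, adjusted p = 1.59e-06). INKA1 went from 20.4, 38.1 and 30.1 TPM to 1.94, 3.56 and 2.63 TPM (log2 fold change -3.17, SE 0.30, adjusted p = 3.84e-06). Of the largest losses in TPM, IRF2BP2, DOK2, SEPHS2 and RGS19 fell by 0.77, 0.71, 0.87 and 0.98 on the log2 scale. The call was lost for IRF2BP2 without LPS replicate 1, basal replicate 1 or basal replicate 2, at log2 fold changes of -0.77, -0.69 and -0.73, and for DOK2 without basal replicate 2, at -0.65.

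Genes called only by alternative tests of the difference between CO2 levels are given as values and were chosen after their values were seen. STARD4, a sterol carrier, had log2 fold changes of 2.04 at 5% CO2 and 3.03 at 10% CO2 in shNR4A2 cells (adjusted p = 0.194 in edgeR, 5.51e-04 in DESeq2 and 0.0304 with the block). SIK3, a kinase of the AMPK family, had log2 fold changes of 0.16 and 1.01 (adjusted p = 0.279 in edgeR, 0.00152 in DESeq2 and 0.0431 with the block).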
